A study of Rattus norvegicus with 18 samples.

Results

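The miR-143 and miR-145 cluster is a pair of miRNA hairpins made from one primary transcript in smooth muscle, and its 4 mature arms are described here in rat heart tissue. The members were taken by name: rno-miR-143-3p, rno-miR-143-5p, rno-miR-145-5p and rno-miR-145-3p (written without the rat prefix from here on) are 4 of the 599 mature miRNAs listed in each of 18 small RNA libraries. The libraries fall into 3 groups of 6. WKY are Wistar Kyoto rats, labelled as normal. SHR are spontaneously hypertensive rats, labelled as hypertension and, by the design text, given NS. QDG are SHR given QDG. The labels and the design text expand neither NS nor QDG, and give no age or dose. SHR and QDG thus share the strain, and each differs from WKY in strain and in what was given. These cannot be told apart, and neither can any handling that followed group. The design text gives 6 animals per group, but no label ties a library to a single rat. If some libraries shared an animal, the p-values would measure a spread that is partly technical.

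miRNAs are cut from a hairpin as a short duplex, one strand of which usually stays bound to Argonaute and pairs through its seed with messages that it represses. In smooth muscle of vessels, serum response factor with its cofactor myocardin drives transcription of this cluster. miR-145 is known to repress Klf4 and Klf5 and miR-143 to repress Elk1, factors that oppose the contractile state. Mice without the cluster have less contractile arteries and low blood pressure. In the heart these miRNAs are therefore read mainly as miRNAs of the vessel wall.

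RefSeq places both hairpins on the minus strand of rat chromosome 18 (GRCr8), inside the long noncoding RNA gene Carmn. Mir143 spans chr18:57371349-57371453 and Mir145 spans chr18:57369983-57370070, with 1278 bases between them. The hairpins are shown because the results turn on their arms: each lies 5′ to 3′, with the 5p and then the 3p mature arm in capitals.
Mir143: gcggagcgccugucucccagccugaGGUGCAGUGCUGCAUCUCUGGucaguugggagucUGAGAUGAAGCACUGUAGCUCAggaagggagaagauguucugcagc
Mir145: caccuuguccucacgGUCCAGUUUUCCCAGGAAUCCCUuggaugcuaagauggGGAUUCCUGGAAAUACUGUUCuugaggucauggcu

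The mature arms follow with the seed, bases 2 to 8 from the 5′ end, in capitals, since the seed decides which messages an arm can pair with.
miR-143-3p: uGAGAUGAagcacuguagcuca
miR-143-5p: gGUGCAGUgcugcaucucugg
miR-145-5p: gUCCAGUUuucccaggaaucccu
miR-145-3p: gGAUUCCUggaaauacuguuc
The 4 seeds differ from one another, and each was shared by 0 other names among the 693 mature rat entries of the RefSeq table. miR-143-3p begins with U, and the other arms begin with G. The arms were 22, 21, 23 and 21 bases long in the order given, with GC contents of 45.5, 61.9, 52.2 and 42.9%.

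Reads over miRNAs numbered 6420666 to 10169581 per library. Values are reads per 1000000 (RPM) on the authors' own divisor. The scarcest member, miR-143-5p, had at least 1407 reads in each library and miR-143-3p at least 208931, so counting error was small beside the spread between libraries. The heart muscle markers were present in each group (summed level WKY 137127 to 164373 RPM, SHR 173718 to 199502 RPM, QDG 156328 to 203541 RPM). The endothelial arms miR-126a-3p and miR-126a-5p summed to 88331 to 129834 RPM over all groups. Markers of stroma, red blood cells, leukocytes, skeletal muscle, epithelium, liver and neurons summed to at most 17046, 1028, 1563, 993.6, 86.0, 18.02 and 583.8 RPM in a library. No marker listed in the files was at 0 in every library of a group.

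miR-143-3p, the guide strand of its hairpin, was among the most abundant heart miRNAs. It had 45924 to 69740 RPM in WKY libraries (median 61946). SHR libraries had 41041 to 61378 RPM (median 47789) and QDG libraries 50582 to 70852 (median 55305). The 3 ranges overlap: 4 of 6 SHR libraries lay below the WKY mean, replicates 2 and 3 of SHR lay below the lowest WKY library, and the other 4 lay within the WKY range. It ranked 4th to 8th of 599 miRNAs in the 18 libraries and made up 91.5 to 94.7% of the summed RPM of the 4 arms.

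miR-143-5p, the strand that is mostly discarded, was the lowest of the 4 arms in 18 of 18 libraries. Its levels were 239.6 to 537.7 RPM in WKY (median 339.7). They were 265.6 to 473.3 RPM in SHR (median 321.4) and 278.4 to 422.8 RPM in QDG (median 355.9). Replicate 5 was the highest library in both WKY and SHR, and the groups overlapped over most of their ranges. Its rank lay between 87 and 111 of 599.

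miR-145-5p, the arm best known for repressing Klf4 and Klf5, had 1760 to 3432 RPM in WKY libraries (median 2380), 1380 to 2676 in SHR libraries (median 2045) and 1252 to 3031 in QDG libraries (median 2327). Within each group the highest library held more than the lowest by a factor of 1.95 (WKY), 1.94 (SHR) and 2.42 (QDG). The ranges of the groups overlapped in part. WKY replicates 4, 5 and 6 lay above the highest SHR library, and the other WKY libraries lay within the SHR range. miR-145-3p, the other strand of that duplex, was steadier, with 1417 to 1986 RPM in WKY libraries (median 1593), 1325 to 1735 in SHR libraries (median 1630) and 1566 to 1961 in QDG libraries (median 1652). miR-145-5p lay above miR-145-3p in 16 of 18 libraries, so these neighbours in the order of levels were not separated in each library. The exceptions were SHR replicate 3 and QDG replicate 2. Levels of different miRNAs also carry the ligation efficiency of each sequence, which was not measured here.

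**Figure D1:**
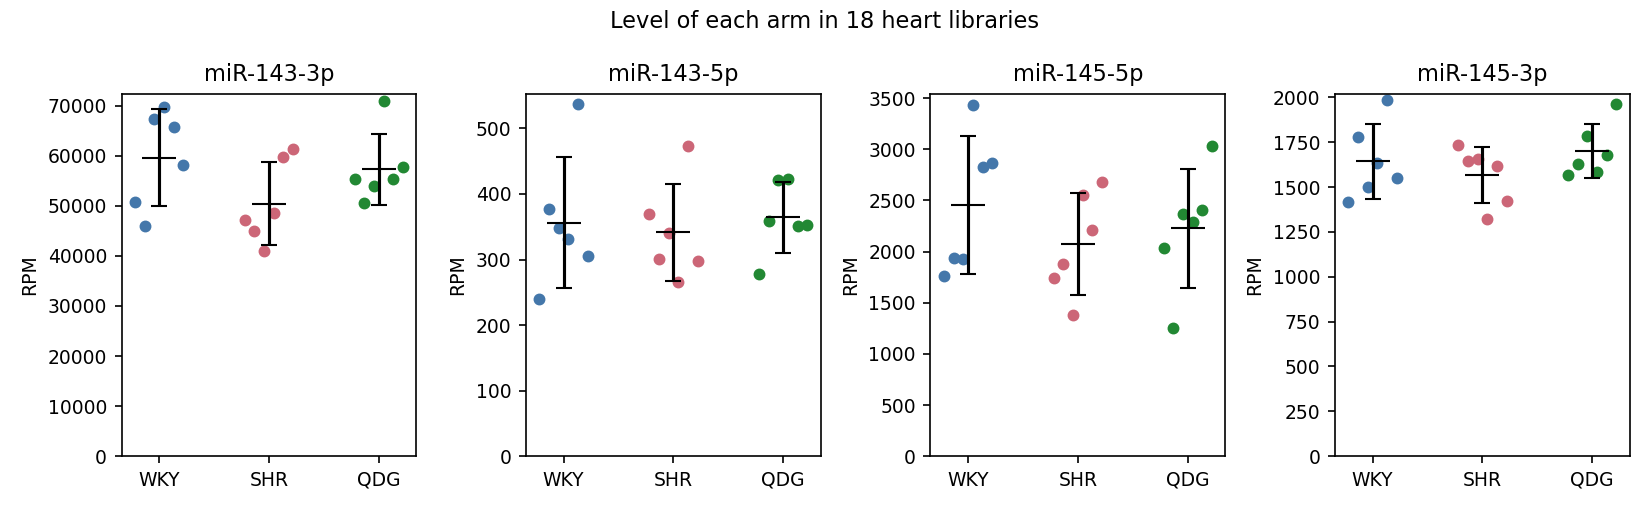
RPM (linear axis from 0) of each arm in WKY, SHR and QDG, with 1 point per library (6 per group) and the mean ± SD as a bar. The groups overlap for each arm, and miR-145-5p, from 1252 to 3432 RPM, spreads more widely for its level than miR-145-3p, from 1325 to 1986 RPM.

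The arms thus differed in how much they varied among libraries of a group. On the log2(RPM + 1) scale the SD within groups was 0.40 for miR-145-5p, 0.31 for miR-143-5p, 0.22 for miR-143-3p and 0.15 for miR-145-3p. The median over the 147 miRNAs with a mean of at least 100 RPM was 0.18. miR-145-5p had the 4th largest SD of those 147 miRNAs and miR-143-5p the 12th, while miR-145-3p was 102nd. The strands of a single duplex therefore stood far apart in this order, with the same number of libraries and like read numbers (6066 reads or more for miR-145-5p and 7149 or more for miR-145-3p).

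The comparison of SHR with WKY asks whether the cluster differs in hearts of the hypertensive strain. miR-143-3p had 59615 ± 9633 RPM in WKY and 50452 ± 8259 in SHR (SD, n = 6 each). The difference on the log2(RPM + 1) scale was -0.24 ± 0.11 (SE), or -15.3%, with a 95% confidence interval from -27.5 to -1.03%. Its unadjusted p was 0.0375 and its adjusted p over all 410 miRNAs tested was 0.118 (limma), so it missed the threshold of 0.05. In bulk tissue, fewer smooth muscle cells and less of the miRNA per cell cannot be told apart. The call depended on single libraries: adjusted p was 0.0371 without WKY replicate 2 and 0.0473 without SHR replicate 6. Under the 4 other scalings the difference was -0.19 to -0.14 (adjusted p = 0.203 to 0.370).

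miR-145-5p had 2457 ± 677.2 RPM in WKY and 2074 ± 497.7 in SHR (SD, n = 6 each), a log2 difference of -0.24 ± 0.22 (SE, limma adjusted p = 0.497). Its estimate was thus as low as that of miR-143-3p, but its interval ran from -38.1 to 16.5%. For the less abundant arm of each hairpin, miR-143-5p had a log2 difference of -0.04 and miR-145-3p of -0.07 (limma adjusted p = 0.875 and 0.669), with intervals from -22.3 to 21.1% and from -16.5 to 9.21%. Of the 4 arms 0 passed, where 23.2% of all tested miRNAs did (95 of 410; 8.05% higher and 15.1% lower, and 34.4% at an unadjusted p under 0.05), and 0 of 4 had groups without overlap, where 10.2% of all miRNAs did. The summed level of the heart muscle markers was higher in SHR (given above by group), which lay mainly in miR-1-3p: 2 of the 6 markers rose, miR-1-3p and miR-208b-3p, and the list median was -0.09. The sum leaves out miR-1b, a separate entry with a mean of 372143 RPM over the 18 libraries. How reads were divided between miR-1b and miR-1-3p is not given. The part of heart muscle RNA in these values was not tested.

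The comparison of QDG with SHR asks whether QDG changed the cluster within the strain. All 4 arms lay on the higher side in QDG, and 0 of 4 passed. miR-143-3p had 57302 ± 7051 RPM in QDG (SD, n = 6), a log2 difference from SHR of 0.19 ± 0.11 (SE, unadjusted p = 0.0926, limma adjusted p = 0.983). In 6 of 6 QDG libraries it lay above the SHR mean on the log2 scale. The interval of this difference ran from -2.32 to 33.4%, so it holds both no change and rises well above the estimate of 14.2%. Without QDG replicate 4, the library with the highest miR-143-3p in the study, the log2 difference was 0.13 (adjusted p = 0.999).

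miR-145-3p had a log2 difference of 0.12 (interval -5.00 to 24.2%), miR-143-5p of 0.11 (-13.8 to 34.4%) and miR-145-5p of 0.09 (-22.2 to 46.3%), each with a limma adjusted p of 0.983. Their QDG means were 1700 ± 149.5, 364.3 ± 53.8 and 2230 ± 581.7 RPM (SD, n = 6 each). No miRNA of the 410 was called in this comparison (0% at an adjusted p under 0.05 in limma, and 0 in edgeR and DESeq2 as well), while 15 of 410 (3.66%) had an unadjusted p under 0.05. With no miRNA called, the count of calls cannot tell the arms from the background. The median log2 difference was 0.11 over the 4 arms and 0.02 over all 410, and whether these differ was not tested.

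Against WKY, the QDG libraries gave log2 differences of -0.05 for miR-143-3p, 0.06 for miR-143-5p, -0.14 for miR-145-5p and 0.05 for miR-145-3p (limma adjusted p = 0.803, 0.823, 0.704 and 0.734). Of all miRNAs 17.8% were called in this comparison (7.32% higher, 10.5% lower), 31% had an unadjusted p under 0.05 and 8.05% had groups without overlap. Of the arms 0 of 4 did any of these. Intervals were -17.3 to 12.98% for miR-143-3p, -33.9 to 24.2% for miR-145-5p, -16.4 to 30.3% for miR-143-5p and -9.27 to 18.6% for miR-145-3p. This comparison shares its WKY libraries with the first and its QDG libraries with the second, so the 3 sets of values are not independent.

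The mean of SHR and QDG set against WKY, which uses 12 libraries of the SHR strain, gave a log2 difference of -0.14 for miR-143-3p (interval -21.0 to 3.55%, limma adjusted p = 0.280) and -0.19 for miR-145-5p (-33.3 to 15.3%, adjusted p = 0.513). miR-143-5p and miR-145-3p had 0.01 and -0.01 (adjusted p = 0.968 and 0.964), with intervals of -17.0 to 21.9% and -11.4 to 11.8%. In this contrast 25.9% of the 410 miRNAs were called (8.54% higher and 17.3% lower), and 37.3% had an unadjusted p under 0.05; of the arms 0 of 4 did either. For miR-145-3p the interval is thus the narrowest of the 4 and that for miR-145-5p the widest.

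**Figure D2:**
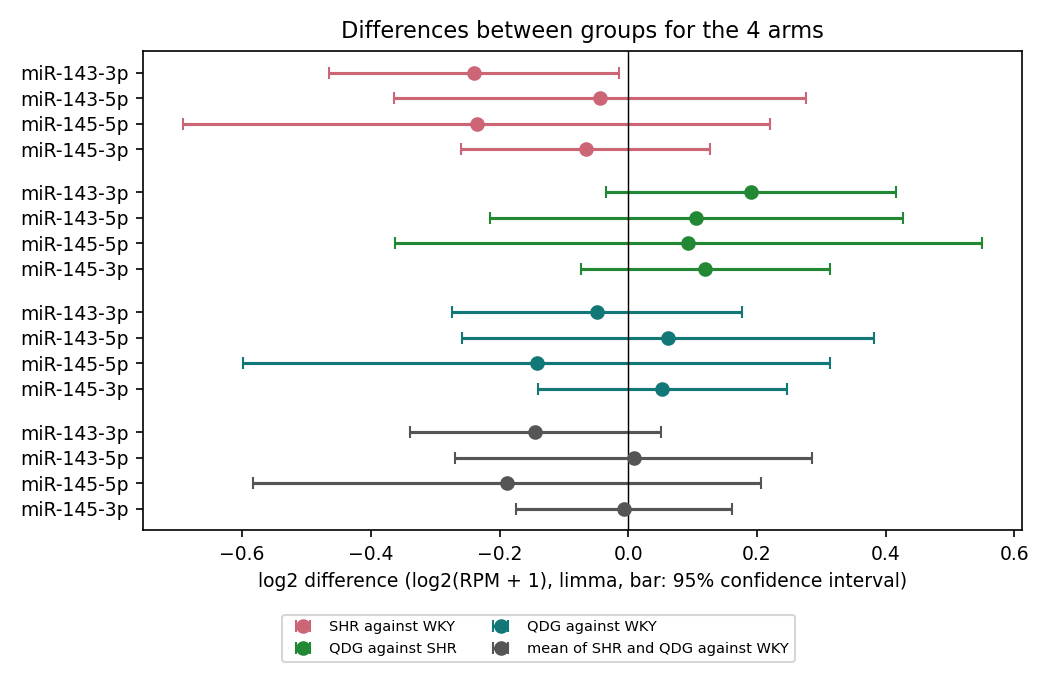
Log2 difference of each arm in 4 comparisons (limma on log2(RPM + 1), 6 libraries per group), with points at the estimate and bars at the 95% confidence interval. The interval of miR-143-3p in SHR against WKY, which ends at -0.01, is the one that does not reach 0, and that of miR-145-5p is the widest in each comparison.

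Together the 4 arms took 4.45 ± 0.673% of the reads summed over all listed miRNAs in WKY and 3.91 ± 0.682% in SHR (SD, n = 6 each). In QDG they took 4.35 ± 0.619% (SD, n = 6). That sum is larger than the authors' divisor (9463554 against 6556077 reads in WKY replicate 1). How reads were divided between entries is not given, so a read may count more than once in it. The share did not differ detectably between SHR and WKY (exact permutation p = 0.190, adjusted p = 0.343), QDG and SHR (exact permutation p = 0.271, adjusted p = 0.726) or QDG and WKY (exact permutation p = 0.794, adjusted p = 0.950). These are two-sided tests of 6 against 6 libraries, in which 0.00216 is the smallest p possible, adjusted over the 9 single-value measures of each comparison. The other 8 measures are log2 ratios of miRNAs within a library, which no scaling of libraries can move.

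The hairpins differed in how evenly their arms were read. The 3p arm held 99.2 to 99.5% of the reads of the miR-143 hairpin in all 18 libraries, or 120 to 212 reads for each read of miR-143-5p. For miR-145 the 5p arm held 43.5 to 67.7% of reads. Its mean share was 59.2 ± 5.98% for WKY, 56.3 ± 8.23% for SHR and 56.0 ± 6.29% for QDG (SD over 6 libraries). The ratio of miR-145-5p to miR-145-3p thus ran from 0.770 to 2.10 between libraries.

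No change in strand use was detected. The log2 ratio of miR-143-3p to miR-143-5p was 7.41 ± 0.378 for WKY, 7.22 ± 0.319 for SHR and 7.30 ± 0.219 for QDG (SD over 6 libraries). Its difference was -0.20 for SHR against WKY and 0.08 for QDG against SHR (exact permutation p = 0.366 and 0.587, adjusted p = 0.549 and 0.916). For miR-145-5p to miR-145-3p the log2 ratio was 0.54 ± 0.363, 0.37 ± 0.489 and 0.35 ± 0.367 in the same order. The differences were -0.17 and -0.03 (exact permutation p = 0.5 and 0.913, adjusted p = 0.643 and 0.922). QDG against WKY gave -0.11 for the first ratio and -0.20 for the second (exact permutation p = 0.545 and 0.392, adjusted p = 0.950 for each).

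No change in the balance of the hairpins was detected either. The log2 ratio of miR-143-3p to miR-145-5p was 4.63 ± 0.308 for WKY, 4.63 ± 0.229 for SHR and 4.72 ± 0.384 for QDG (SD over 6 libraries), with 19.0 to 40.4 reads of miR-143-3p for each of miR-145-5p over the 18 libraries. Its difference was -0.004 for SHR against WKY, 0.10 for QDG against SHR and 0.09 for QDG against WKY (exact permutation p = 0.974, 0.610 and 0.656, adjusted p = 0.974, 0.916 and 0.950). The log2 ratio of miR-143-5p to miR-145-3p differed by 0.02, -0.01 and 0.01 (exact permutation p = 0.872, 0.922 and 0.950, adjusted p = 0.974, 0.922 and 0.950).

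**Figure D3:**
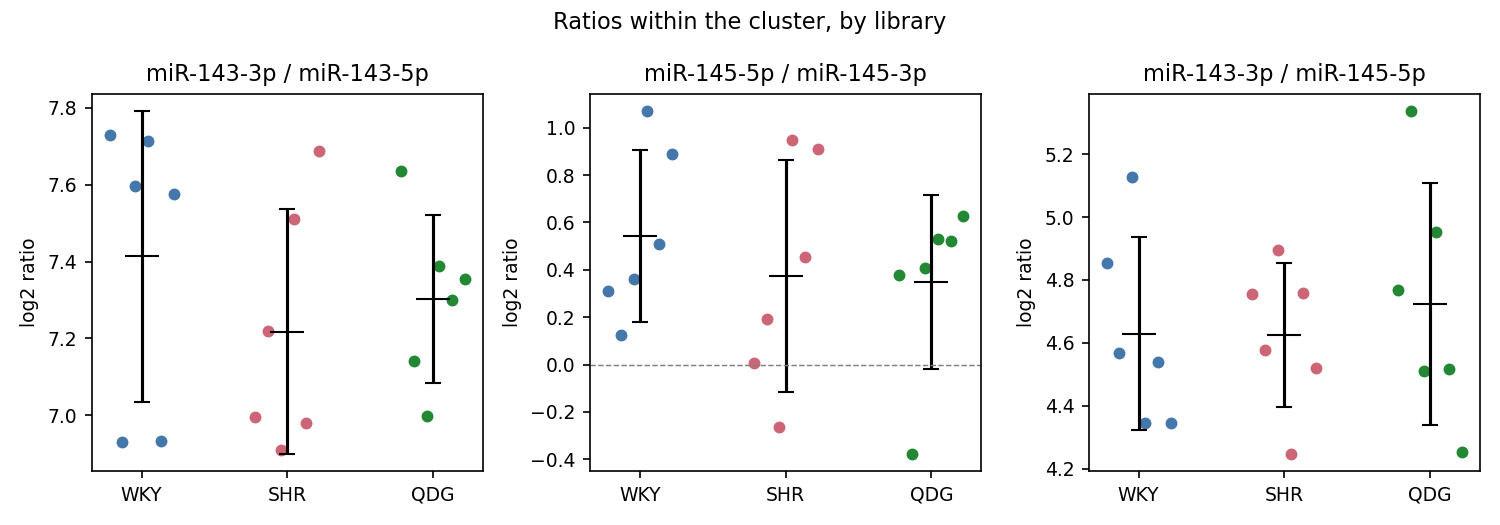
Log2 ratios within the cluster for each library (6 points per group), with the mean ± SD as a bar; the dashed line marks equal reads of miR-145-5p and miR-145-3p. All 3 groups overlap in each ratio, and 2 libraries, SHR replicate 3 and QDG replicate 2, lie below the dashed line.

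Set against 1 chosen miRNA each of endothelium, heart muscle and stroma, miR-143-3p had estimates on the lower side in SHR, by similar amounts. Its log2 ratio to miR-126a-3p, the endothelial miRNA, was -0.89 ± 0.247 in WKY and -1.22 ± 0.279 in SHR (SD, n = 6 each). That difference was -0.33, with 5 of 6 SHR libraries below the WKY mean (exact permutation p = 0.0606, adjusted p = 0.343). Against miR-133a-3p of heart muscle the difference was -0.23, and against miR-199a-3p of fibroblasts and stroma -0.27 (exact permutation p = 0.134 and 0.147, adjusted p = 0.343 for each). For miR-145-5p to miR-126a-3p it was -0.33 (exact permutation p = 0.190, adjusted p = 0.343). None of these passed the threshold. Other marker miRNAs of endothelium and heart muscle were not used as references, and their own log2 differences varied. In SHR against WKY these were -0.13 for miR-126a-5p, -0.19 for miR-499-5p and 0.74 for miR-1-3p, so a ratio to one of them would differ accordingly.

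In QDG against SHR the same ratios of miR-143-3p were higher by 0.17 against miR-126a-3p, 0.25 against miR-133a-3p and 0.22 against miR-199a-3p, and that of miR-145-5p to miR-126a-3p by 0.07. Their exact permutation p lay between 0.158 and 0.773 and their adjusted p between 0.726 and 0.922. In QDG against WKY they were -0.16, 0.02, -0.06 and -0.26 (exact permutation p = 0.219, 0.916, 0.764 and 0.323, adjusted p = 0.950 for each). The reference miRNAs were themselves not called in SHR against WKY, with log2 differences of 0.09 for miR-126a-3p, -0.01 for miR-133a-3p and 0.03 for miR-199a-3p (limma adjusted p = 0.406, 0.949 and 0.854).

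Although all 4 arms come from one transcript, they did not all vary together from library to library. After each group's mean was subtracted, miR-143-3p followed miR-145-5p over the 18 libraries (Pearson r = 0.62, permutation p = 0.0122, adjusted p = 0.0366; Spearman rho = 0.64, permutation p = 0.0110, adjusted p = 0.0367). Within groups r was 0.63 (WKY), 0.79 (SHR) and 0.44 (QDG). An r of 0.62 was not particular to the cluster. Among 245 other miRNAs with a mean of at least 10 RPM, the one ranked 12th for miR-143-3p, miR-214-3p, had r = 0.81. The same miRNA was 34th for miR-145-5p, with r = 0.71. The permutation takes libraries of a group as exchangeable, but miR-145-5p was lower in the libraries numbered 1 to 3 than in those numbered 4 to 6 in WKY (1760 to 1937 against 2823 to 3432 RPM) and SHR (1380 to 1880 against 2209 to 2676 RPM). In SHR miR-143-3p was too (41041 to 47095 against 48483 to 61378 RPM). The labels do not say what a number marks, and its part in this correlation and in the wide spread of miR-145-5p was not tested. Without the pair of libraries farthest from the median of miR-143-3p, QDG replicate 4 and SHR replicate 6, r was 0.61.

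The less abundant arms of the different hairpins, miR-143-5p and miR-145-3p, also varied together (Pearson r = 0.70, permutation p = 0.00452, adjusted p = 0.0271; Spearman rho = 0.63, permutation p = 0.0122, adjusted p = 0.0367). Here r was 0.93 in WKY, 0.63 in SHR and 0.24 in QDG, and 0.62 without WKY replicate 5 and SHR replicate 5. In contrast, no relation was detected between strands of the same duplex. For miR-143-3p with miR-143-5p r was 0.33 and rho 0.16 (permutation p = 0.245 and 0.561, adjusted p = 0.490 and 0.731), and for miR-145-5p with miR-145-3p r was 0.09 and rho 0.01 (permutation p = 0.723 and 0.981, adjusted p = 0.723 and 0.981). Without the 2 farthest libraries these were 0.38 and 0.13. Within groups the latter r had no single sign, at 0.40 (WKY), -0.79 (SHR) and 0.61 (QDG).

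The remaining pairs, miR-143-3p with miR-145-3p and miR-143-5p with miR-145-5p, had r of -0.12 and 0.10 and rho of -0.24 and -0.14 (permutation p = 0.663 and 0.701 for r and 0.380 and 0.609 for rho, adjusted p = 0.723 for each r and 0.731 for each rho); without the 2 farthest libraries r was 0.05 and -0.05. All 6 pairs share libraries and their scaling, and whether one r differs from another was not tested. With TMM scaling miR-143-3p with miR-145-5p had r = 0.49 and miR-143-5p with miR-145-3p r = 0.43 (permutation, adjusted p = 0.195 for each), so both calls were lost. With it miR-143-3p with miR-145-3p had r = -0.46, about as far from 0, and miR-143-3p with miR-143-5p had 0.086. Leaving out 1 of WKY replicates 1, 2, 4 and 5, SHR replicates 1, 3 and 6 and QDG replicate 2 also ended the call of miR-143-3p with miR-145-5p (r = 0.55 to 0.61, permutation, adjusted p = 0.0519 to 0.105). Leaving out WKY replicate 1, 2 or 5 ended that of miR-143-5p with miR-145-3p (r = 0.56 to 0.69, permutation, adjusted p = 0.0552 to 0.0984).

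**Figure D4:**
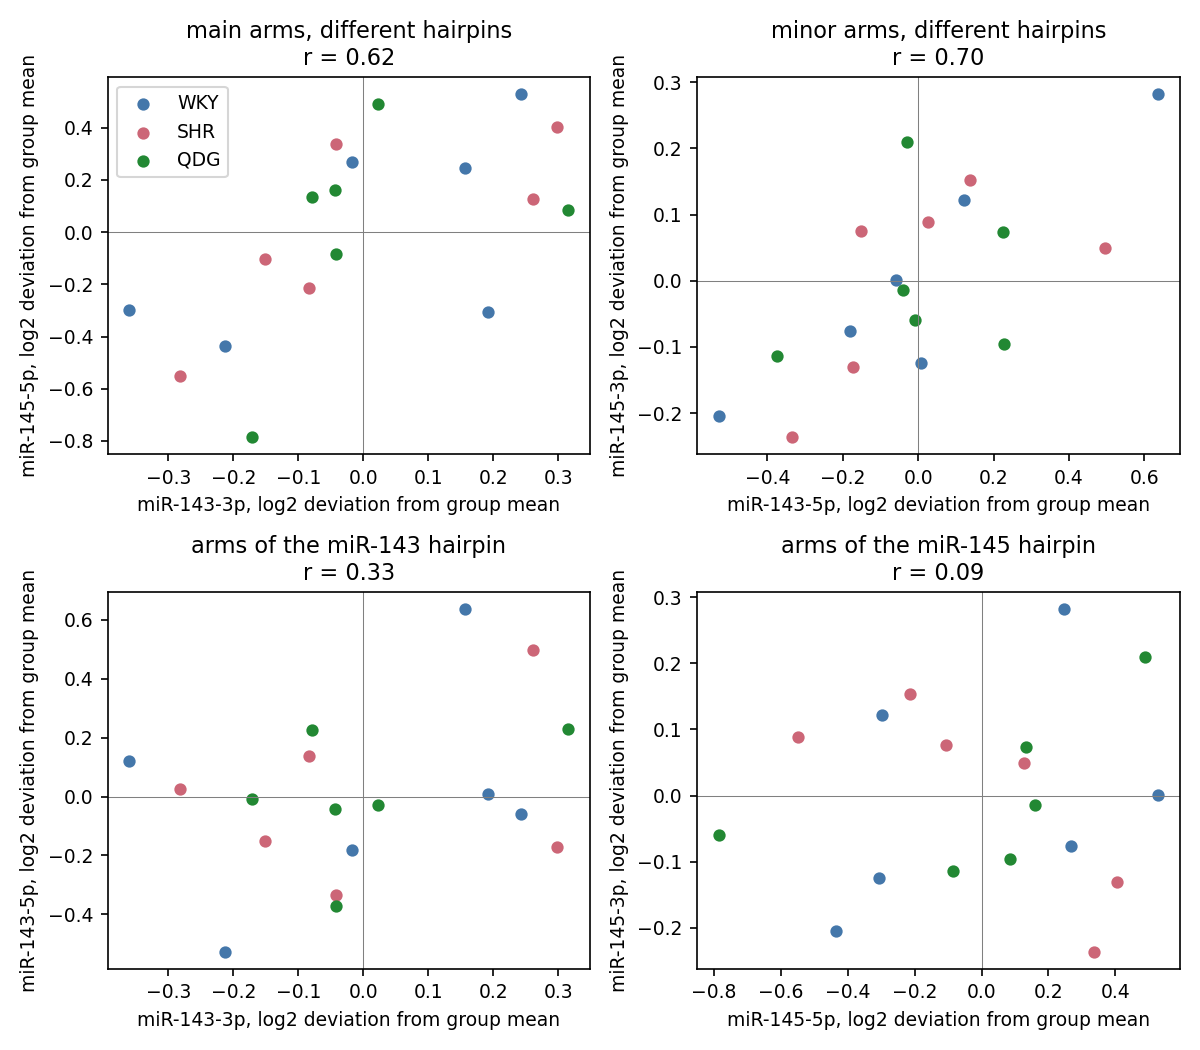
Deviation of 1 arm from its group mean against that of another (log2 scale, 18 libraries, coloured by group), for 4 of the 6 pairs of arms. The points rise together in the upper panels, for the main arms and the minor arms of different hairpins (r = 0.62 and 0.70). With TMM scaling these r were 0.49 and 0.43, and neither was called. Points form no clear line in the lower panels, for arms of the same hairpin (r = 0.33 and 0.09). The pairs not drawn, also of different hairpins, had r of -0.12 and 0.10.

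Strand ratios are free of library scaling. Their correlation was added after the values above were seen and is built from the same 4 arms in the same libraries, so it is no independent evidence. The log2 ratio of miR-143-3p to miR-143-5p followed that of miR-145-5p to miR-145-3p over the 18 libraries (Pearson r = 0.60, permutation p = 0.0168, adjusted p = 0.0392 over 7 relations; Spearman rho = 0.53, permutation p = 0.0389, adjusted p = 0.0908). The rank correlation missed the threshold after adjustment. The permutation takes libraries of a group as exchangeable, but in each group the miR-145 ratio lay apart by library number (values under Other observations). It was lower in the lower-numbered libraries, while the miR-143 ratio overlapped between lower and higher numbers. The part of library number in this correlation was not tested, so covariation of strand use cannot be told from it. Within groups r was 0.48 in WKY, 0.87 in SHR and 0.34 in QDG, it was 0.61 without WKY replicates 2 and 5, and it ranged from 0.52 to 0.68 with any 1 library left out.

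Other miRNAs were ranked by how like their library-to-library pattern was to that of the main strands. The 5 with the highest r to miR-143-3p, among 245 other miRNAs with a mean of at least 10 RPM, were miR-125b-2-3p (r = 0.91), miR-532-5p (0.91), miR-30a-3p (0.90), miR-185-5p (0.86) and miR-30e-3p (0.85). For miR-145-5p they were let-7b-5p (0.92), miR-99a-3p (0.89), miR-874-3p (0.86), miR-326-3p (0.86) and miR-423-5p (0.86). These r are over 18 libraries with group means subtracted, and are a description, since the miRNAs were picked for them and share depth and scaling with the members. Each of the 10 was closer to its main strand than the cluster's own other main strand was, at r = 0.62.

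Among the reference miRNAs, miR-214-3p of stroma was 12th of 245 for miR-143-3p (r = 0.81), while miR-126a-3p (r = 0.04), miR-133a-3p (0.22) and miR-199a-3p (-0.27) lay lower, at places 150, 112 and 205. For miR-145-5p these 4 miRNAs had r of 0.71, -0.00096, 0.54 and -0.50, in the order miR-214-3p, miR-126a-3p, miR-133a-3p and miR-199a-3p. miR-214-3p and miR-199a-3p, which are made from one transcript in stromal cells, thus had r of opposite sign with these 2 arms. miR-199a-5p, the other arm of miR-199a, had positive r with both, like miR-214-3p (0.52 with miR-143-3p and 0.63 with miR-145-5p). With miR-143-5p, miR-214-3p and miR-199a-3p were both positive (0.46 and 0.44), as they were with miR-145-3p (0.12 and 0.48).

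Base composition moved with these patterns. Of the 245 miRNAs, 221 (90.2%) matched a RefSeq sequence, and over them the GC content of a miRNA had a Spearman rho of 0.53 with its r to miR-143-3p and of 0.34 with its r to miR-145-5p. In the 59 miRNAs richest in GC (52.2% or more) the median r was 0.42 to miR-143-3p and 0.41 to miR-145-5p. In the 58 miRNAs poorest in GC (39.1% or less) it was -0.20 and -0.04. For miR-145-3p the rho was -0.22, and for miR-143-5p 0.23. By contrast, the mean level of a miRNA had a rho between -0.08 and 0.14 with its r to the arms. miRNAs are not independent points, so no p is given, and the part of base composition in the covariation of the members was not tested.

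**Figure D5:**
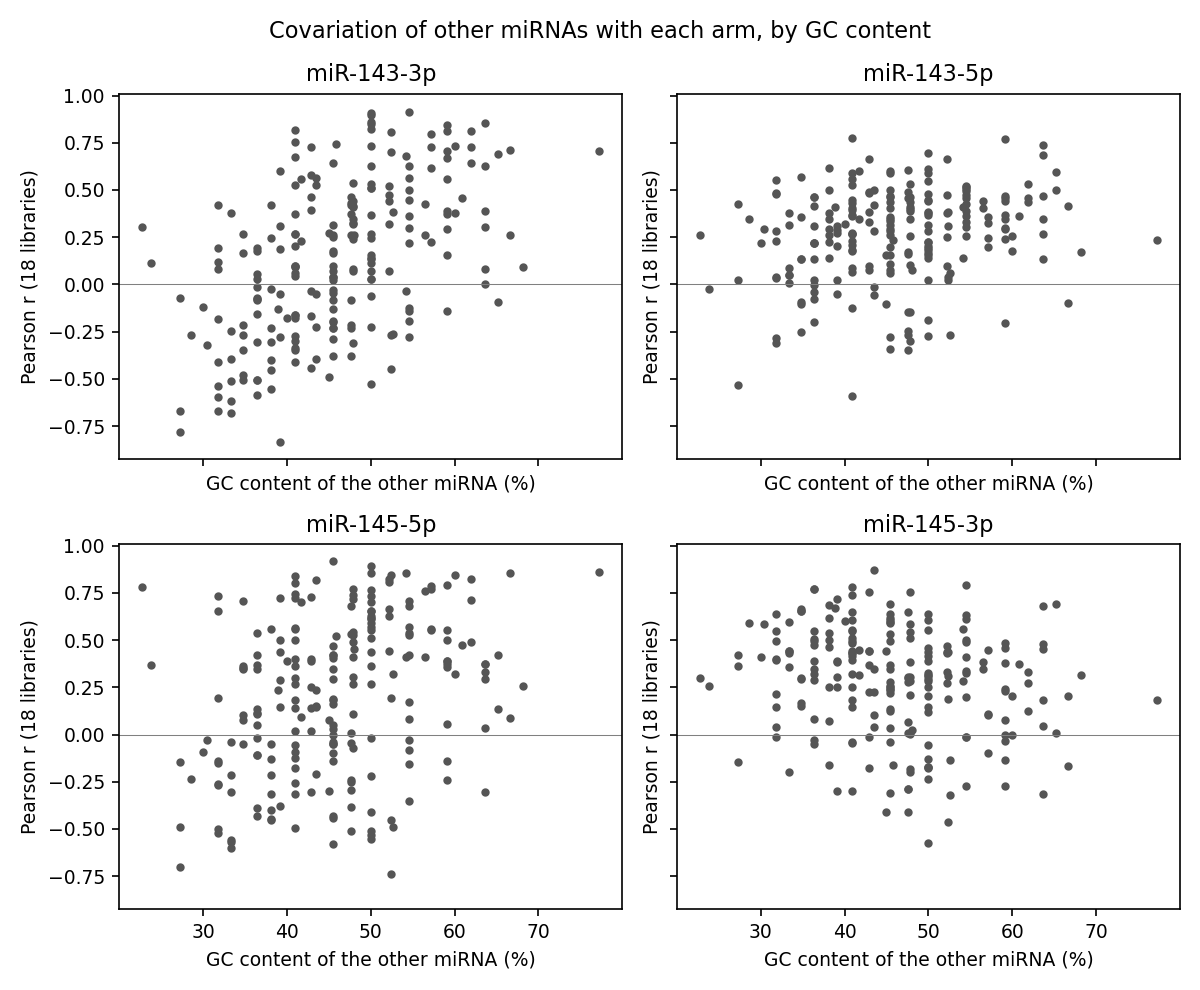
Pearson r of 221 other miRNAs with each arm (18 libraries, group means subtracted) against their GC content in percent, 1 point per miRNA. Points climb from left to right for miR-143-3p (Spearman rho 0.53) and less for miR-145-5p (0.34), and fall slightly for miR-145-3p (-0.22).

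Other miRNAs of the same biology were followed in lists drawn from general knowledge of smooth muscle, with earlier results of these data known. The 8 miRNAs that depend on serum response factor and myocardin are the 4 arms with miR-1-3p, miR-133a-3p, miR-133a-5p and miR-486. In SHR against WKY 1 of 8 rose and 0 fell, where 8.05% of all 410 miRNAs rose and 15.1% fell. The median log2 difference was -0.04, against -0.07 over all. The riser was miR-1-3p, of heart muscle, from 70589 ± 8617 to 117240 ± 10227 RPM (SD, n = 6 each; log2 0.74 ± 0.08, SE, limma adjusted p = 3.34e-08). It also rose in QDG against WKY (0.70, limma adjusted p = 9.46e-08). Whether its change differed from that of the smooth muscle arms was not tested. miR-1b, listed as a separate miRNA with a mean of 372143 RPM over the 18 libraries, was in none of the lists or marker sets. How reads were divided between such entries is not given. miR-133a-3p, miR-133a-5p and miR-486 had -0.01, 0.04 and -0.03 (limma adjusted p = 0.949, 0.854 and 0.877).

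Of 12 miRNAs reported to favour the contractile state of smooth muscle, 11 were tested and 0 were called in any comparison (medians of 0.01, 0.02 and 0.03 for SHR against WKY, QDG against SHR and QDG against WKY). Over all miRNAs 23.2, 0 and 17.8% were called in these comparisons, with medians of -0.07, 0.02 and -0.06. Their most abundant members are miR-143-3p, miR-133a-3p, miR-22-3p and miR-23b-3p, of which the last 2 had 0.01 and 0.06 in SHR against WKY (limma adjusted p = 0.940 and 0.725). Of 10 miRNAs reported to favour growing smooth muscle, 2 rose and 0 fell in SHR against WKY, where 8.05% of all tested miRNAs rose and 15.1% fell. The list median was 0.14, against -0.07 over all. A call for 2 of 10 is near the 23.2% called among all, so the count is no result about the list. They were miR-21-5p, abundant in fibroblasts and injured vessels, and miR-221-3p, known for repressing the cell cycle inhibitor p27.

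miR-21-5p rose from 17299 ± 980.3 RPM in WKY to 23706 ± 6058 in SHR (SD, n = 6 each; log2 0.42 ± 0.11, SE, limma adjusted p = 0.00513). It had 23380 ± 2057 RPM in QDG (0.43 against WKY, limma adjusted p = 0.00436). miR-221-3p rose from 362.7 ± 50.6 to 469.4 ± 95 RPM (log2 0.36 ± 0.12, limma adjusted p = 0.0246). That call was lost without WKY replicate 1, WKY replicate 6 or SHR replicate 5 (adjusted p = 0.0609, 0.0599 and 0.0881), and in QDG against WKY it had 0.29 (adjusted p = 0.0891). Of the other abundant members, miR-26a-5p, miR-24-3p and miR-146a-5p had -0.19, 0.21 and -0.29 in SHR against WKY (limma adjusted p = 0.0524, 0.118 and 0.0698). In the mean of SHR and QDG against WKY miR-146a-5p was called lower (-0.27, limma adjusted p = 0.0421). That call was lost without any 1 of 12 of the 18 libraries (adjusted p up to 0.151), without the filter on low values (0.0576), in DESeq2 (0.0691) and under RLE (0.0685) and upper quartile scaling (0.165). In QDG against SHR 0 of 10 were called.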

How the data were processed

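Small RNA was sequenced from rat heart in 18 libraries, from 1 µg of total RNA each with a NEBNext small RNA kit, per the labels' protocols. FastQC, TopHat2 and limma are listed, without versions, in the submitters' processing notes. Genome build, miRNA annotation and counting rule: not given in the sources used here. The authors deposited a signal for each mature miRNA, called a normalized read count in the file headers. Each library has its own step, and dividing by it returned a whole read, within 0.01, for 10782 of 10782 values. The values are called RPM here, although they sum to more than 1000000 per library.

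The filter asked for 1 RPM or more in 6 or more libraries, which 410 of 599 miRNAs passed. limma (3.58.1, R 4.3.3; trend, robust) was fitted to log2(RPM + 1) of all 18 libraries without covariates, and p-values were adjusted by Benjamini-Hochberg over all 410. The fold of scarce miRNAs is understated on this scale. Single values were compared by two-sided exact permutation tests of 6 against 6, and correlations by 100000 permutations within groups. edgeR (4.0.16), DESeq2 (1.42.0) and limma-voom on the recovered reads were alternatives, as were 4 other scalings. Tests were tested on simulated data. Samples were grouped by title.

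The members, lists, tests and alternatives were chosen with earlier results of these data known. Named miRNAs were the members, the references of the ratios, called list members, the 4 most abundant of each smooth muscle list and the 5 most like each main arm. Sequences come from RefSeq (GRCr8), which matched 543 of 599 names and all 4 members. Of the listed names, miR-663-3p, miR-126b-5p and miR-126b-3p were not analysed here.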

Additional observations from a re-analysis of the deposited data

Results flagged for a closer look

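Each group of 6 libraries was checked for a single library far from the rest, by the gap to its nearest neighbour as a share of the group's range (Dixon's test), for the 4 arms and the 9 single-value measures. Of 39 such groups 4 stood out, and chance gives about 1 in 20. QDG replicate 4 was the highest of its group in miR-143-3p, at 70852 RPM, and in the share of reads in the 4 arms, at 5.55%; the second follows largely from the first. QDG replicate 2 was the lowest of its group in the log2 ratio of miR-145-5p to miR-145-3p, at -0.38, and so had fewer reads of the 5p than of the 3p strand. SHR replicate 5 was the highest of its group in the log2 ratio of miR-143-5p to miR-145-3p, at -1.77.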

How the results depend on the processing

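In limma 0 of the 4 arms passed in each comparison, and this held under the 13 other fits of each comparison of 2 groups and the 12 of the mean of SHR and QDG against WKY (other pseudocounts, filters and scalings, edgeR, DESeq2, limma-voom, the groups compared alone and the replicate block; adjusted p of 0.0661 or more). It held with 1 library left out too, except for miR-143-3p in SHR against WKY, whose log2 difference ranged from -0.31 to -0.18. Numbers of miRNAs called stayed within 1.5 times the stated ones. Differences near 0 changed sign. In SHR against WKY miR-143-5p had 0.0062 with TMM, 0.033 with RLE, 0.056 with upper quartile scaling, 0.0065 with the 10 most abundant left out of the total, 0.0058 in edgeR, 0.031 in DESeq2 and 0.0050 in limma-voom. There miR-145-3p had 0.011, 0.034 and 0.014 with RLE, upper quartile scaling and DESeq2, and in QDG against WKY miR-143-3p had 0.059 with upper quartile scaling. In the mean of SHR and QDG against WKY miR-145-3p had 0.033, 0.055, 0.098, 0.019, 0.034, 0.056 and 0.032 under the 7 settings named for miR-143-5p. With medians in place of means, the log2 ratio of miR-143-3p to miR-145-5p differed by 0.11 in SHR against WKY and -0.024 in QDG against SHR, and that of miR-143-5p to miR-145-3p by -0.00041 and 0.050. That of miR-145-5p to miR-145-3p differed by 0.14 in QDG against SHR and 0.031 in QDG against WKY, and that of miR-143-3p to miR-133a-3p by -0.064 in QDG against WKY. With 1 library left out, signs changed within these ranges. In QDG against WKY they were -0.044 to 0.19 for miR-143-5p, -0.24 to 0.014 for miR-145-5p, -0.34 to 0.042 percentage points for the share of reads, and -0.12 to 0.10, -0.029 to 0.19, -0.19 to 0.023 and -0.056 to 0.080 for the ratios of miR-143-3p to miR-133a-3p, miR-145-5p and miR-199a-3p and of miR-143-5p to miR-145-3p. In SHR against WKY they were -0.15 to 0.083 for miR-143-5p, and -0.061 to 0.096 and -0.067 to 0.093 for the ratios of miR-143-3p to miR-145-5p and miR-143-5p to miR-145-3p. In QDG against SHR they were -0.017 to 0.25 for miR-145-5p, and -0.025 to 0.19, -0.078 to 0.076, -0.056 to 0.23 and -0.15 to 0.12 for the ratios of miR-143-3p to miR-145-5p, miR-143-5p to miR-145-3p, miR-145-5p to miR-126a-3p and miR-145-5p to miR-145-3p. In the mean of SHR and QDG against WKY they were -0.097 to 0.14 for miR-143-5p and -0.048 to 0.050 for miR-145-3p. With TMM the correlations of miR-143-3p with miR-145-5p, miR-143-5p with miR-145-3p, miR-143-5p with miR-145-5p and miR-145-5p with miR-145-3p were 0.49, 0.43, -0.18 and -0.31, while miR-143-3p with miR-145-3p went from -0.12 to -0.46 and miR-143-3p with miR-143-5p from 0.33 to 0.086. With 1 library left out the first 4 ranged from 0.55 to 0.71, 0.56 to 0.77, -0.057 to 0.19 and -0.050 to 0.23. The cause was not tested. Groups share replicate numbers. Same-numbered libraries deviated together (correlation over 0.1) in 8 of 18 pairs. A library was closest to its own number, among the 6 libraries of another group, in 7 of 36 cases. The median correlation was 0.07 for same-numbered pairs and -0.02 for other pairs. The numbers were not taken to pair libraries. These values do not address libraries numbered 1 to 3 against those numbered 4 to 6 (under Other observations). With the replicate block 93, 0, 77 and 106 miRNAs were called in SHR against WKY, QDG against SHR, QDG against WKY and the mean of SHR and QDG against WKY, miR-143-3p had an adjusted p of 0.0661 in SHR against WKY, and no call of an arm or ratio changed.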

Other observations

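miR-145-5p levels lay apart by library number in WKY and SHR, and overlapped in QDG. In WKY the libraries numbered 1 to 3 had 1760 to 1937 RPM and those numbered 4 to 6 had 2823 to 3432 RPM. In SHR the same numbers had 1380 to 1880 and 2209 to 2676 RPM, and in QDG 1252 to 2366 and 2289 to 3031 RPM, where replicate 3 lay above replicate 4. For miR-145-3p the SHR libraries split the other way, with 1644 to 1735 RPM for numbers 1 to 3 and 1325 to 1615 for numbers 4 to 6. Its ranges overlapped in WKY (1417 to 1778 and 1550 to 1986 RPM) and QDG (1566 to 1783 and 1586 to 1961 RPM). For miR-143-3p the libraries numbered 1 to 3 had 41041 to 47095 RPM and those numbered 4 to 6 had 48483 to 61378 RPM in SHR, while in WKY they overlapped (45924 to 67284 and 58238 to 69740 RPM), as they did in QDG (50582 to 55344 and 55267 to 70852 RPM). The log2 ratio of miR-145-5p to miR-145-3p lay apart by number in each group, QDG included. Numbers 1 to 3 had 0.12 to 0.36 in WKY, -0.27 to 0.19 in SHR and -0.38 to 0.41 in QDG. Numbers 4 to 6 had 0.51 to 1.07, 0.45 to 0.95 and 0.52 to 0.63 in the same order. The labels do not say what a number stands for. These patterns were noticed after the values were seen, and they were not tested.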
